A study of Mus musculus with 5 samples.

Results

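Msln, its neighbour Mslnl and 4 further genes that mark mesothelium (Wt1, Upk3b, Upk1b and Muc16) were followed in cells in which LINE-1 elements were targeted for transcriptional activation. The 6 genes were taken by symbol from a table of 21259 cellular genes, and all 6 were present. Msln was among the genes with a large difference between the groups, so the set was chosen by the measured difference between these groups together with what the genes are known for. The differences of the 6 genes are therefore given as a description, without p-values. The cells were NIH3T3, an established mouse fibroblast line, and in both groups they stably carried a dCas9 activator, a Cas9 protein that does not cut DNA and raises transcription at the place its guide RNA binds. Cells transfected with plasmids for sgRNA against the LINE-1 promoter (LINE-1 sgRNA, 3 libraries) were compared with cells transfected with scramble sgRNA plasmids (scramble sgRNA, 2 libraries), both 48 h after transfection. The labels do not say whether the libraries of a group came from separate cultures, so the spread behind each p-value is that between these libraries and may be technical.

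Mesothelium is the flat cell layer that lines the pleural, peritoneal and pericardial cavities and covers the organs within them. Msln encodes mesothelin, made as a precursor that furin-type proteases cleave and held at the surface by a glycosylphosphatidylinositol (GPI) anchor; it binds the membrane mucin encoded by Muc16, known as CA125. Mslnl encodes a mesothelin-like protein, Wt1 a zinc finger transcription factor of mesothelium, podocytes and Sertoli cells, and Upk3b and Upk1b uroplakins, membrane proteins of mesothelium and urothelium.

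Gene libraries held 35996907 to 45596490 recovered reads with LINE-1 sgRNA and 30681384 to 36726985 with scramble sgRNA. Levels below are normalized reads, and differences are LINE-1 sgRNA minus scramble sgRNA on the log2(normalized reads + 1) scale. The summed signal of 25 L1Md names, the mouse LINE-1 families, was 262724 to 305366 with LINE-1 sgRNA and 304971 to 321593 with scramble sgRNA, and the ranges met. An exact two-sided permutation test gave p = 0.5; the smallest value it can give here is 0.1. Fibroblast markers were abundant in both groups: Col1a1, a chain of type I collagen, averaged 86146 ± 2958 with LINE-1 sgRNA and 139610 ± 3142 with scramble sgRNA (SD, n = 3 and n = 2, as throughout).

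Msln was already a well expressed gene in scramble sgRNA cells and was one of the most abundant transcripts in LINE-1 sgRNA cells. It had 90931, 92048 and 92464 normalized reads in the LINE-1 sgRNA libraries, against 6406 and 6749 in the scramble sgRNA libraries. The LINE-1 sgRNA libraries lay close together, all far above both scramble sgRNA libraries. The means were 91814 ± 793 with LINE-1 sgRNA and 6578 ± 243 with scramble sgRNA, a ratio of 14.0 and a log2 difference of 3.80 (SE 0.057). Msln took 0.289 to 0.299% of all gene reads with LINE-1 sgRNA and 0.0195 to 0.0202% with scramble sgRNA. Divided by merged exon length (3064 bases) and put on the TPM scale, which is called the level per length, it had 3632 ± 114 with LINE-1 sgRNA, which placed it number 16 of 21158 genes, and 246 ± 12.6 with scramble sgRNA, which placed it at number 672. In such bulk samples, more cells with a transcript and more of it per cell cannot be told apart. The gain of 85237 normalized reads was the largest of any gene in the table. The next was that of Lgals3bp, which encodes a secreted galectin-binding glycoprotein, with a gain of 35812. By log2 difference Msln stood at number 200 of 14337 tested genes, and at number 2 among the 7235 whose scramble sgRNA mean was at least 1000.

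**Figure D1:**
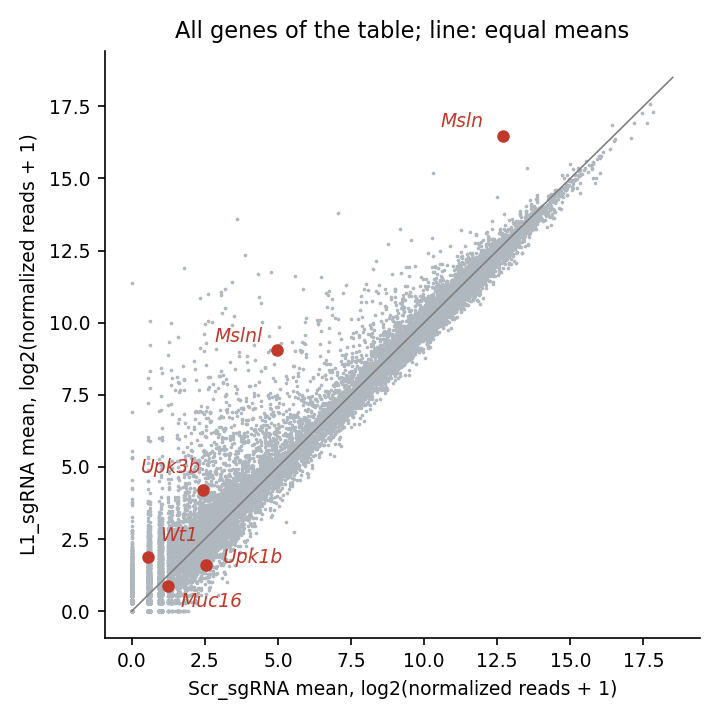
Log2(group mean of normalized reads + 1) with LINE-1 sgRNA (vertical axis) against scramble sgRNA (horizontal axis) for all 21259 genes (grey), with the 6 genes in red and a line at equal means. Msln lies far above the line among abundant genes, Mslnl and Upk3b above it at lower levels, and Wt1, Upk1b and Muc16 at the low end.

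Mslnl, scarce in scramble sgRNA cells, was higher in every LINE-1 sgRNA library. It had 512, 615 and 459 normalized reads with LINE-1 sgRNA, against 35.3 and 24.5 with scramble sgRNA. The groups were far apart, with means of 528 ± 79.6 with LINE-1 sgRNA and 29.9 ± 7.63 with scramble sgRNA, a ratio of 17.6 and a log2 difference of 4.11 (SE 0.17). Per length it was far below Msln in both groups, at 24.5 ± 4.41 with LINE-1 sgRNA and 1.30 ± 0.314 with scramble sgRNA.

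The remaining marker genes were at or near the limit of detection. Upk3b had 13.9, 26.4 and 12.3 normalized reads with LINE-1 sgRNA, against 4.28 and 4.54 with scramble sgRNA. All LINE-1 sgRNA libraries were higher, from 71 recovered reads in that group and 9 in the other (ratio 4.10, 95% exact counting interval 2.04 to 9.32), and the log2 difference was 1.70 (SE 0.46). Wt1 had 4, 2 and 4 recovered reads with LINE-1 sgRNA, against 0 and 1 with scramble sgRNA, a ratio of 5.19 whose counting interval ran from 0.739 to 225. The scramble sgRNA library with 0 reads allows up to 3.21 normalized reads, a range that holds the levels of LINE-1 sgRNA libraries 1 and 2 (3.09 and 1.35) and is just below that of library 3 (3.50), so a difference in Wt1 was not detectable at this depth. Upk1b had 2, 4 and 2 recovered reads with LINE-1 sgRNA, against 4 and 6 with scramble sgRNA; its normalized reads were lower in every LINE-1 sgRNA library, with a ratio of 0.415 and a counting interval of 0.142 to 1.17. Muc16, the gene of the mesothelin partner, had 0, 1 and 2 reads with LINE-1 sgRNA and 0 and 3 with scramble sgRNA, so the groups overlapped (ratio 0.519, interval 0.0695 to 3.88). These intervals and floors cover counting error only.

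**Figure D2:**
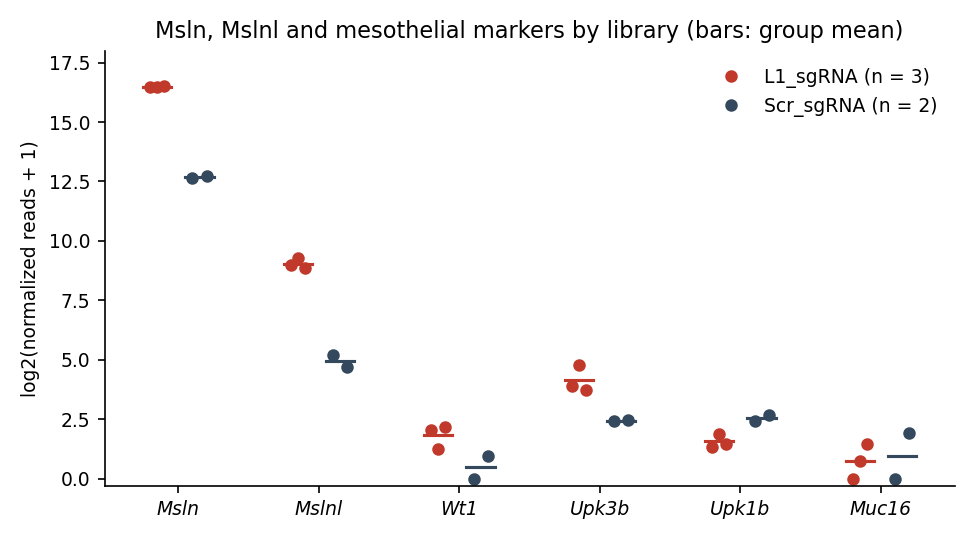
Level of each gene in every library on the log2(normalized reads + 1) axis, LINE-1 sgRNA libraries in red (n = 3) left of scramble sgRNA libraries in dark blue (n = 2), with bars at the group means. Msln, Mslnl and Upk3b separate upwards; Wt1, Upk1b and Muc16 stay at or below 5.45 normalized reads in every library.

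Requiring an average of 10 or more normalized reads kept 3 of the 6 genes, Msln, Mslnl and Upk3b; Upk3b passed it only through its LINE-1 sgRNA libraries. As a count only, these 3 were among the genes called higher in limma's fit over all tested genes, where 18.2% of all tested genes were higher and 43.5% passed in either direction. For Upk3b the matching share is larger: of the 638 tested genes with a scramble sgRNA mean under 10, 72.9% were called higher. All LINE-1 sgRNA libraries lay above both scramble sgRNA libraries in 4 of the 6 genes and below both in 1, Upk1b, where 24.6% of all tested genes were so separated upwards, 37.2% downwards and 61.8% either way. The contrast chose the set, so nothing is read from these counts. Ordered by level per length with LINE-1 sgRNA, the genes ran Msln, Mslnl, Upk3b, Upk1b, Wt1 and Muc16. In that order no libraries of neighbouring genes overlapped, but its lower end rests on few reads. Upk1b and Wt1 both had 2 to 4 recovered reads in each LINE-1 sgRNA library. Their order there comes from exon length (2089 and 6195 bases). With scramble sgRNA the order of the middle pair was Upk1b (0.232 and 0.302) above Upk3b (0.137 and 0.149), and Wt1 (0 and 0.0170) overlapped Muc16 (0 and 0.0120). Msln reads varied within groups more than counting error alone, which gives a chi-square near 1 for each degree of freedom. The values for Msln were 8.57 for LINE-1 sgRNA and 9.04 for scramble sgRNA. Medians over the 474 genes with a mean over 10000 were 21.4 for LINE-1 sgRNA and 19.5 for scramble sgRNA. Mslnl had 15.8 for LINE-1 sgRNA and 1.99 for scramble sgRNA, and Upk3b 4.50 and 0.00785. Over all tested genes the medians were 2.88 and 2.12. Counting intervals leave out this further spread.

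Msln and Mslnl lie tail to tail on chromosome 17 (GRCm38, GENCODE release M 21). Msln (ENSMUSG00000063011.7) runs on the minus strand from 25748613 to 25754378 and Mslnl (ENSMUSG00000041062.7) on the plus strand from 25736042 to 25748330, so their annotated ends are 282 bases apart. Per 1000 Msln reads, Mslnl had 5.63, 6.68 and 4.96 reads in the LINE-1 sgRNA libraries, against 5.52 and 3.64 in the scramble sgRNA libraries. This proportion overlapped between the groups while both genes differed more than 10-fold between them. RNA that continues past the end of Msln would fall on Mslnl, and no label or header gives the strandedness of the counting; whether such reads are among those of Mslnl was not tested. The annotated transcripts of the pair shared no identical run longer than 12 bases on either strand.

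**Figure D3:**
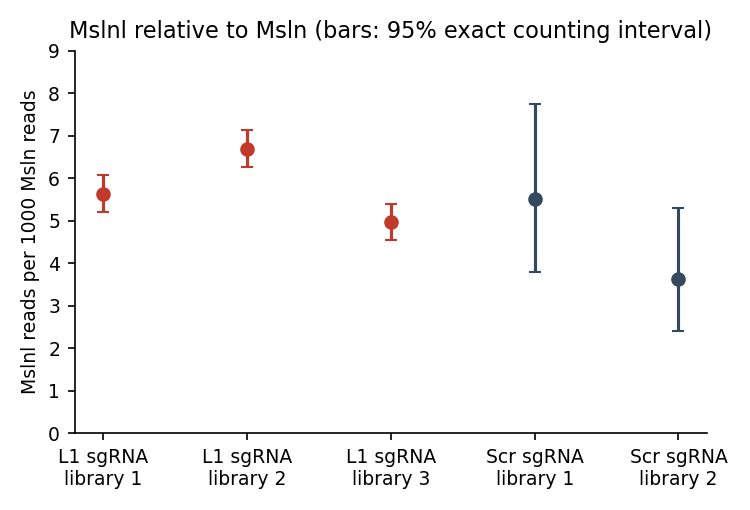
Mslnl reads per 1000 Msln reads in each library (vertical axis), LINE-1 sgRNA libraries in red left of scramble sgRNA libraries in dark blue, with 95% exact counting intervals. The values run from 4.96 to 6.68 with LINE-1 sgRNA and from 3.64 to 5.52 with scramble sgRNA and overlap.

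The genes around the pair moved far less. Of the 6 nearest genes of the table on each side, all 12 were tested. Rpusd1, an RNA pseudouridine synthase gene 4577 bases from Mslnl, had 939, 886 and 916 normalized reads with LINE-1 sgRNA and 967 and 974 with scramble sgRNA (log2 -0.09, SE 0.072, limma adjusted p = 0.354). Narfl, a gene of cytosolic iron-sulfur protein assembly 19397 bases from Msln, had 1491, 1599 and 1522 with LINE-1 sgRNA and 1399 and 1373 with scramble sgRNA (0.15, SE 0.064, adjusted p = 0.0702). Narfl passed in edgeR (0.21, adjusted p = 0.0154), in DESeq2 (0.21, 0.0202), under TMM (0.20, 0.0199) and under scaling to table totals (0.23, 0.0116). Among the 12 neighbours 5 passed as higher (18.2% of all tested genes did) and 0 as lower, a count that was also 0 at an unadjusted p under 0.05, in edgeR and in DESeq2. Metrn, which encodes the secreted factor meteorin, rose by 0.37 (SE 0.071, adjusted p = 4.65e-04), to 2197 ± 123 normalized reads with LINE-1 sgRNA, against 1703 ± 175 with scramble sgRNA. The somatostatin receptor gene Sstr5 (1.16), the transcription factor gene Sox8 (1.03), the G protein subunit gene Gng13 (0.56) and Ccdc78 (0.65) also passed. Without scramble sgRNA library 2 these 4 no longer passed (adjusted p = 0.272, 0.125, 0.179 and 0.227). Metrn was the single neighbour higher, and Fam173a passed as lower (-0.24, 0.0466). Sstr5 was also lost without LINE-1 sgRNA library 1 (0.0747) or 3 (0.0622), Sox8 without library 2 (0.0531) or 3 (0.155), and Ccdc78 without library 1 (0.10), 2 (0.0624) or 3 (0.117). With the replicate number as a block 3 neighbours were higher, Sox8 and Ccdc78 being lost. Gng13 overlaps Chtf18, Ccdc78 overlaps Fam173a and Narfl overlaps Haghl, so without strand their reads cannot be told apart.

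**Figure D4:**
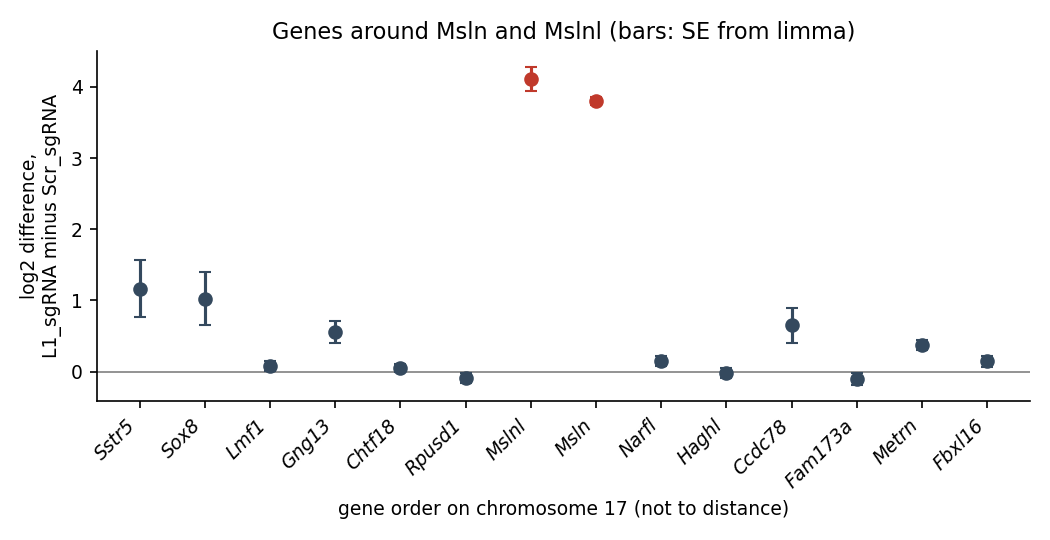
Log2 difference, LINE-1 sgRNA minus scramble sgRNA, with the SE from limma, for Mslnl and Msln (red) and the 6 nearest genes of the table on each side (dark blue), in order along chromosome 17 and not to distance. The pair stands at 4.11 and 3.80; the neighbours run from -0.11 to 1.16.

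Neighbours of the other marker genes moved in both directions. Beside Upk3b (chromosome 5, 136038496 to 136046487), its paralog Upk3bl had 11.9 ± 2.49 normalized reads with LINE-1 sgRNA and 19.6 ± 9.55 with scramble sgRNA (-0.61, adjusted p = 0.252), and their transcripts shared no identical run longer than 12 bases. Dtx2, a Notch pathway ubiquitin ligase gene on its other side, rose by 0.27 (adjusted p = 0.00768; 0.0692 without scramble sgRNA library 1), and Rasa4, a Ras GTPase-activating protein gene, by 0.33 (adjusted p = 1.25e-04). Beside Upk1b (chromosome 16, 38773184 to 38800328), the nearest tested gene B4galt4 did not pass (-0.40, adjusted p = 0.177). Further out, Arhgap31, a GTPase-activating protein gene, rose by 1.08 (adjusted p = 1.41e-09) while 4930435E12Rik, nearest on one side, had at most 1.07 normalized reads in a library and was not tested. The adhesion gene Igsf11, at 25.4 ± 2.53 normalized reads with LINE-1 sgRNA and 0.990 ± 0.114 with scramble sgRNA, was also called higher, but it entered the test only through its LINE-1 sgRNA libraries, and of the 638 tested genes with a scramble sgRNA mean under 10, 72.9% were called higher. Beside Wt1 (chromosome 2, 105126529 to 105173616), 3 of 4 tested neighbours passed as lower (25.4% of all tested genes did; 1 in edgeR and in DESeq2). Rcn1, an endoplasmic reticulum calcium-binding protein gene, fell by 0.29 (adjusted p = 2.79e-04). Ccdc73 (-0.19, adjusted p = 0.0207) and the translation initiation factor gene Eif3m (-0.18, 0.0312) overlap each other. Neither passed without scramble sgRNA library 1 (Ccdc73 0.245, Eif3m 0.340), without LINE-1 sgRNA library 1 (0.0670 and 0.0870) or without library 2 (0.0523 and 0.0785), which leaves Rcn1 alone. Them7, on the other side, had at most 4.63 normalized reads in a library and was not tested. Around Muc16 (chromosome 9, 18495455 to 18674530) 1 of 6 neighbours was tested, and it did not pass; the nearest, Mbd3l1 and Olfr24, had at most 2.73 and 0.875 normalized reads in a library.

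The RefSeq promoter table (GRCm38.p6, 250 bases before to 50 after the start) matched 3 of the 6 genes: Mslnl, Upk3b and Muc16. The promoters of Mslnl and Upk3b are shown because these are the matched genes that were higher in all LINE-1 sgRNA libraries. They lie at chr17:25735790-25736089 and chr5:136038246-136038545, both on the plus strand. Capitals mark GGAATG or its reverse complement, the core letters bound by TEAD factors. The TATA box, as TATAAA, was also searched on both strands, and so was the GC box, as GGGCGG.
Mslnl: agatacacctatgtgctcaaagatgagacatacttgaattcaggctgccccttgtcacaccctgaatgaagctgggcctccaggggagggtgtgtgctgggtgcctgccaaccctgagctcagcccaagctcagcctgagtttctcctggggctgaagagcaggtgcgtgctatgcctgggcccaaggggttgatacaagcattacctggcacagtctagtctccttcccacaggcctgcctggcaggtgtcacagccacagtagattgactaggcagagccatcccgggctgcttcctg
Upk3b: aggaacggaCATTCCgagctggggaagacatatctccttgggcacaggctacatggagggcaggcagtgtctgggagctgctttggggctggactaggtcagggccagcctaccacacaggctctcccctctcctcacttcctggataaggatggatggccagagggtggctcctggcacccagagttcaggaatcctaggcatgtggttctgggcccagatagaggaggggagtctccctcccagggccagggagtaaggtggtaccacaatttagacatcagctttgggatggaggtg
The Upk3b window held the TEAD letters once, in reverse complement at position -241 from the start, and the windows of Mslnl and Muc16 held it nowhere. The TATA and GC box letters were in none of the 3 windows. Over all 32851 promoters of the table, 14.7% held the TEAD letters, 13.6% the TATA box and 35.7% the GC box. A match of letters is a description of the window and not a binding site.

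Other mesothelial markers did not follow Msln. Of 27 further genes listed as markers of mesothelium, 16 were tested, and 9 passed as lower and 1 as higher, where 25.4% of all tested genes were lower and 18.2% higher; their median difference was -0.30, against -0.06 over all tested genes. Bnc1, a basonuclin transcription factor gene, fell by 1.01 (SE 0.080, adjusted p = 2.02e-08), with 559, 552 and 541 normalized reads with LINE-1 sgRNA and 1069 and 1157 with scramble sgRNA. The thrombomodulin gene Thbd fell by 0.67 (adjusted p = 2.20e-07), to 1579 ± 6.60 with LINE-1 sgRNA, against 2513 ± 207 with scramble sgRNA. Osr1, a transcription factor gene of lateral mesoderm, fell by 0.63 (adjusted p = 3.16e-07) and the protease inhibitor gene Slpi by 0.56 (adjusted p = 2.80e-04). In these 4 genes every LINE-1 sgRNA library was below both scramble sgRNA libraries.

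Further members of that list were singled out after their values were seen. Gata6, a zinc finger transcription factor gene, was the marker that rose (0.58, SE 0.15, adjusted p = 0.00376), with 193 ± 15 normalized reads with LINE-1 sgRNA and 129 ± 8.06 with scramble sgRNA; it overlaps 1010001N08Rik. Its paralog Gata4 had 624 ± 32.0 with LINE-1 sgRNA and 626 ± 3.48 with scramble sgRNA (-0.01, adjusted p = 0.957). Podoplanin (Pdpn), a surface glycoprotein gene of mesothelium that fibroblasts also express, fell by 0.28 (adjusted p = 0.00115). The 11 genes that were not tested never exceeded 11.6 normalized reads in a library. They include Calb2 (calretinin), at 3.17 ± 1.9 with LINE-1 sgRNA and 1.9 ± 1.17 with scramble sgRNA, and Krt19, at 7.29 ± 1.71 with LINE-1 sgRNA and 4.87 ± 0.828 with scramble sgRNA; Gpm6a had 0 reads in every library, which allows up to 3 reads in each. The summed level of the 27 genes was 9256 to 9651 with LINE-1 sgRNA and 13018 to 13286 with scramble sgRNA. Untested Lrrn4 had 11.6, 4.06 and 6.13 normalized reads with LINE-1 sgRNA, against 3.21 and 2.73 with scramble sgRNA. Untested Igfbp5 (at most 3.86) was also higher in every LINE-1 sgRNA library, Aldh1a2 (at most 4.545) lower, and the other untested genes overlapped. Bnc1, Thbd, Osr1 and Slpi averaged 1113, 2513, 2796 and 1129 with scramble sgRNA in these fibroblasts, so their falls say little of mesothelial identity. The listed markers as a group thus did not rise with Msln, and the 6 genes are called by Msln and Mslnl.

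**Figure D5:**
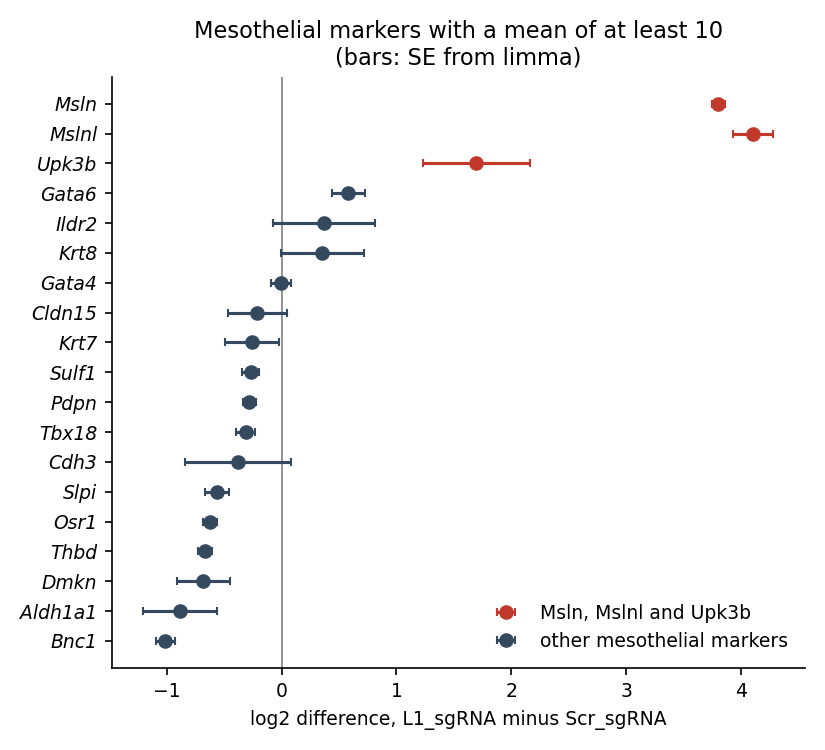
Log2 difference, LINE-1 sgRNA minus scramble sgRNA (horizontal axis), with the SE from limma, for Msln, Mslnl and Upk3b (red) and the 16 tested genes of the other mesothelial markers (dark blue). Bnc1 lies lowest at -1.01 and Gata6 highest of the dark blue points at 0.58.

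Few genes related to mesothelin and uroplakins were tested, and none was called. Of the mesothelin relatives of the inner ear, Otoa (otoancorin) had 18.2 ± 7.21 normalized reads with LINE-1 sgRNA and 21.4 ± 4.56 with scramble sgRNA (-0.27, adjusted p = 0.591), and Strc (stereocilin) had 8.20 ± 3.13 with LINE-1 sgRNA and 4.33 ± 1.59 with scramble sgRNA and was not tested; it overlaps Ckmt1. The bladder uroplakin gene Upk1a had 86.6 ± 17.1 with LINE-1 sgRNA and 70.3 ± 17.2 with scramble sgRNA (0.30, adjusted p = 0.300), while Upk2 and Upk3a stayed at or below 8.57 normalized reads in every library. Of these lists 1 mesothelin relative and 2 uroplakin genes outside the 6 genes were tested. None passed in limma (0 also at an unadjusted p under 0.05, in edgeR and in DESeq2). Over all tested genes 18.2% were higher and 25.4% lower, so nothing is read from so few genes.

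Most mucin genes other than Muc16 that were called higher were tested only through their LINE-1 sgRNA libraries. Of 14 further mucin and sialomucin genes, 12 were in the table and 9 were tested; 6 passed as higher and 1 as lower (18.2% and 25.4% of all tested genes), with a median of 1.26. Of these, 5 were tested only through their LINE-1 sgRNA libraries, since their scramble sgRNA mean was under 10, and of all 638 such genes 72.9% passed as higher. Muc4, a membrane mucin gene, had 181, 246 and 217 normalized reads with LINE-1 sgRNA, against 5.35 and 8.18 with scramble sgRNA (4.81, SE 0.24, adjusted p = 5.24e-11). Muc20, another membrane mucin gene, rose to 40.8 ± 3.31 with LINE-1 sgRNA, against 6.02 ± 2.09 with scramble sgRNA (2.60, adjusted p = 1.12e-05), but it overlaps Muc4 on chromosome 16 and their reads cannot be told apart without strand. The secreted gel-forming mucin genes Muc5ac (1.75, adjusted p = 0.00330) and Muc5b (1.65, 0.00707) rose to 17.4 ± 3.0 and 15.4 ± 1.9 with LINE-1 sgRNA, against 4.41 ± 0.185 and 4.33 ± 1.59 with scramble sgRNA.

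The calls of the other mucin genes were lost on leaving out certain libraries. Muc6 (0.69, adjusted p = 0.0194) did not pass without scramble sgRNA library 1 (0.179) or LINE-1 sgRNA library 1 (0.0950). Muc3 (1.26, 0.0401) did not pass without scramble sgRNA library 1 (0.0820) or 2 (0.0785), without LINE-1 sgRNA library 2 (0.121) or 3 (0.162), or with the replicate block (0.130). The sialomucin gene Cd164 (-0.15, 0.0243) did not pass without scramble sgRNA library 2 (0.0579), or without LINE-1 sgRNA library 1 (0.120) or 3 (0.0527). It also did not pass in edgeR (0.160), in DESeq2 (0.142), under TMM (0.136) or under scaling to table totals (0.254). Muc1 (-0.22, adjusted p = 0.518) and Muc13 (0.18, 0.485) did not pass either way. Muc15, Muc19 and the endomucin gene Emcn had at most 7.49, 1.82 and 4.38 normalized reads in a library and were not tested.

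Among genes that process mesothelin, calls as lower were close to the share over all tested genes. Furin, which encodes the protease that cleaves its precursor, had 5338 ± 141 normalized reads with LINE-1 sgRNA and 4967 ± 305 with scramble sgRNA (0.10, SE 0.055, adjusted p = 0.139). Furin passed in edgeR (0.16, adjusted p = 0.0257), in DESeq2 (0.16, 0.0259), under TMM (0.16, 0.0335), under scaling to table totals (0.19, 0.00874) and without scramble sgRNA library 2 (0.17, 0.0402). Of 8 tested genes for cleavage, GPI anchoring and shedding, 2 passed as lower and 0 as higher, where 25.4% of all tested genes were lower and 18.2% higher (higher calls numbered 0 at an unadjusted p under 0.05, and 1 in edgeR and in DESeq2). Pgap1, a GPI remodelling enzyme gene, fell by 0.50 (adjusted p = 8.58e-04). The GPI transamidase subunit gene Pigt fell by 0.17 (0.0215). Pigt did not pass without scramble sgRNA library 1 (0.0578) or 2 (0.0610) or LINE-1 sgRNA library 2 (0.0565), nor under TMM (0.108), under scaling to table totals (0.218), in edgeR (0.131) or in DESeq2 (0.161). Pigk, the transamidase catalytic subunit gene, had -0.10 (0.161).

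Markers of other cell types are set beside Msln here, and their part in its level was not tested. Of 19 tested fibroblast markers 16 passed as lower, where 25.4% of all tested genes did, and 0 as higher, where 18.2% did (0 also at an unadjusted p under 0.05, in edgeR and in DESeq2), with a median of -0.56 and a summed level of 522538 to 545178 with LINE-1 sgRNA and 767774 to 823327 with scramble sgRNA. The lower calls numbered 13 in edgeR, under TMM, under scaling to table totals and without the variance trend. They numbered 14 in DESeq2, 17 with the replicate block and 13 to 16 on leaving out a LINE-1 sgRNA library. Lum (-1.02), Dcn (-0.92), Prrx1 (-0.82) and Thy1 (-0.82) had the smallest p. Of 10 tested epithelial markers 2 passed as higher, close to the 18.2% of all tested genes, and 0 as lower by the same 4 counts. The transcription factor gene Ovol1 rose by 1.46 (adjusted p = 1.49e-04). The protease gene St14, at 36.3, 27.0 and 44.6 normalized reads with LINE-1 sgRNA and 3.21 and 0 with scramble sgRNA, was tested only through its LINE-1 sgRNA libraries, and 72.9% of such genes were called higher. Prss8 (0.48, adjusted p = 0.363) and Crb3 (0.29, 0.426) did not pass. Ovol1 overlaps Gm31166. The defining gene Epcam had 1.75 to 3.09 normalized reads with LINE-1 sgRNA and 0.909 to 2.14 with scramble sgRNA, and the list summed to 376 to 427 normalized reads with LINE-1 sgRNA and 285 to 365 with scramble sgRNA. Of 11 tested leukocyte markers 7 passed as higher, where 18.2% of all tested genes did, and 0 as lower by the same 4 counts. They include Cd52 (4.20), Adgre1 (3.48) and Laptm5 (2.76), and Cd52 overlaps Crybg2. Of the 7, 5 had a scramble sgRNA mean under 10, and of all such tested genes 72.9% were called higher. The list summed to 1094 to 1136 with LINE-1 sgRNA and 796 to 863 with scramble sgRNA; the pan-leukocyte gene Ptprc had 30.1, 27.7 and 5.25 normalized reads with LINE-1 sgRNA and 3.21 and 6.36 with scramble sgRNA, so its groups overlapped. Ptprc is one of the 7 (adjusted p = 0.0346) and did not pass without scramble sgRNA library 1 (0.177), LINE-1 sgRNA library 1 (0.154) or library 2 (0.161). In LINE-1 sgRNA libraries the epithelial and leukocyte sums were below the level of Msln, and the fibroblast sum was above it. Such sums over chosen markers, not divided by length, set no limit on the Msln that other cells could bring. That share was not tested.

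The genes whose profile over the 5 libraries was most like that of Msln were named by the distance between log2 profiles, each centred on its own mean; this says nothing of shared function or control. Mfrp, a frizzled-related membrane protein gene, was closest (distance 0.118), with 2102 ± 115 normalized reads with LINE-1 sgRNA and 149 ± 5.02 with scramble sgRNA; it overlaps C1qtnf5 and Rnf26. Serpinb5, a serpin gene known as maspin, followed (0.176), with 1789 ± 27.3 with LINE-1 sgRNA and 114 ± 3.54 with scramble sgRNA. Rapgef3, a cyclic AMP-regulated Rap exchange factor gene, had 6846 ± 369 with LINE-1 sgRNA and 438 ± 9.20 with scramble sgRNA (0.210). The phosphatase gene Ptpn7 (0.213) and the serpin gene Serpinb1a (0.233) came next, at 342 ± 28.2 and 221 ± 4.42 with LINE-1 sgRNA, against 22.4 ± 2.97 and 15.1 ± 3.13 with scramble sgRNA. The level of Msln with LINE-1 sgRNA was far above that of each.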

How the data were processed

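Per the labels, total RNA was made into libraries with the NEBNext Ultra II RNA kit. The authors deposited a normalized signal for each library, which the workbook calls normalized counts, in a gene table and a repeat table. Tools in the submitters' processing notes are DESeq2, SAMtools 1.9, bedtools 2.27.1, Bowtie2 2.2.9 and STAR 2.5.3a, and builds are mm10 and GRCm38, all without roles. Strand and counting settings were not given in the sources used here. All values (100%) were whole multiples of the smallest in their library within 0.0001, which gave recovered reads.

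The gene table was fitted with limma 3.58.1 (R 4.3.3), with a variance trend, on log2 of the deposited signal plus 1, for 14337 genes with a mean of at least 10; calls used a threshold of 0.05 on the p adjusted by Benjamini-Hochberg. The 2606 genes that passed as higher and 3637 as lower give the background shares. The fit was tested on simulated data in which no gene with a low scramble sgRNA mean was changed. That test therefore does not cover calls on such genes. Alternatives used edgeR 4.0.16 and DESeq2 1.42.0 on recovered reads. Positions and merged exon lengths are from GENCODE release M 21. Named genes are the 6 genes, up to 4 per list with the smallest p, all mucins, uroplakins and mesothelin relatives in the table, neighbours that passed or lie nearest, and the 5 closest profiles. Lgals3bp, Fam173a, Col1a1, Epcam, Ptprc, Foxa1, Gata4, Gata6, Pdpn, Calb2, Krt19, Gpm6a, Lrrn4, Igfbp5 and Aldh1a2 were named outside it after their values were seen. The 6 genes and the lists were chosen with earlier results of these data known. Endogenous retrovirus loci were not used here. A gene that the rule names is not reported here.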

Additional observations from a re-analysis of the deposited data

How the results depend on the processing

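The log2 difference of Msln (3.80) was 3.86 in edgeR, 3.86 in DESeq2, 3.85 under TMM, 3.89 under scaling to table totals and 3.77 to 3.84 on leaving out a library. With a pseudocount of 8 that of Mslnl was 3.83 and that of Upk3b 1.0; leaving out a library gave 3.85 to 4.36 and 1.38 to 1.9. The median of all tested genes was -0.06 as deposited, -0.01 under TMM and 0.02 under table totals. Over all genes, 2606 passed as higher and 3637 as lower on the deposited scale, 2980 and 2622 under TMM, 3280 and 2136 under scaling to table totals. DESeq2 called 2808 and 2430 and edgeR 3039 and 2583, while 2332 were lower without the variance trend. Higher Msln neighbours (5) numbered 3 with no filter, 2 with a mean of at least 50, 3 without the trend, 3 in DESeq2, 6 in edgeR, 6 under TMM, 7 under scaling to table totals, 3 with the replicate block and 1 to 5 on leaving out a library; lower ones (0) numbered 0 to 1. Higher mucins (6) numbered 2 with a mean of at least 50, 4 without the trend and 5 with no filter, with the replicate block and in DESeq2. They numbered 5 on leaving out any LINE-1 sgRNA library. The 1 lower mucin became 0 in edgeR, in DESeq2, under TMM, under scaling to table totals and without the trend. Lower mucins numbered 0 to 1 on leaving out a LINE-1 sgRNA library. Of the 5 profiles nearest Msln 3 were kept with a pseudocount of 8. The 9 lower mesothelial markers numbered 6 to 9 over the alternatives. Of 112 tested genes outside the 6 genes that are named by the naming rule or listed, 28 changed their call under at least 1 alternative and 0 reversed. Fam173a, which was named outside that rule, is not in this count.

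Replicate numbers are shared by 2 libraries per group. Same-numbered libraries deviated from their group means with correlations of -0.00797 and 0.0657, against 0.0725 for LINE-1 sgRNA library 3 with scramble sgRNA library 1. The 2 scramble sgRNA libraries deviate as mirror images of each other. This check therefore cannot tell whether same-numbered libraries share more than a number. With the replicate block Msln had 3.80, and higher calls numbered 2667 and lower ones 3906 over all genes. Depth limits Wt1, Upk1b and Muc16: the counting intervals of their ratios all include 1.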

Other observations

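Lists around Wt1 gave calls in both directions, with Wt1 itself at 4 reads or fewer per library. Of 11 tested genes known as WT1 targets, 2 passed as higher and 4 as lower in limma, where 18.2% of all tested genes were higher and 25.4% lower, with a median of -0.18. The lower calls numbered 2 without scramble sgRNA library 2, without LINE-1 sgRNA library 1, in edgeR, in DESeq2, under TMM and under scaling to table totals. Amhr2, the anti-Mullerian hormone receptor gene, rose by 3.91 (SE 0.16, adjusted p = 1.80e-12), with 439, 531 and 489 normalized reads with LINE-1 sgRNA and 27.8 and 35.5 with scramble sgRNA; Egr1 rose by 0.31 (4.36e-04). Spry1, a receptor tyrosine kinase antagonist gene, fell by 0.83 (1.25e-04) and Igf1r by 0.36 (3.67e-05). Of 6 tested podocyte and Sertoli markers 2 passed as lower, Synpo (-0.52) and Sox9 (-0.25), where 25.4% of all tested genes did, and 0 as higher in limma (1 at an unadjusted p under 0.05, 0 in edgeR and in DESeq2). Nphs1 (-0.22, adjusted p = 0.0778) and Podxl (0.96, 0.0940) did not pass.

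Of 4 tested urothelial markers 2 were called higher and 1 lower, where 18.2% of all tested genes were higher and 25.4% lower. Both higher ones, Gata3 and Psca, had a scramble sgRNA mean under 10, and of all such tested genes 72.9% were called higher. Gata3 had 27.0 ± 2.03 normalized reads with LINE-1 sgRNA and 5.19 ± 4.77 with scramble sgRNA. Psca had 22.0 ± 2.37 with LINE-1 sgRNA and 9.07 ± 3.83 with scramble sgRNA, and its call was lost without scramble sgRNA library 2 (adjusted p = 0.112) or LINE-1 sgRNA library 1 (0.0635). Trp63 fell by 1.08 (adjusted p = 0.00727; 0.0736 without scramble sgRNA library 2). Foxa1 had 0 reads in every library.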
